A study of Mus musculus with 6 samples.

Results

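The Eph/ephrin, Slit/Robo and netrin gene families encode the classical guidance cues of growing axons and migrating cells, together with their receptors. The genes were taken by symbol from the table of all genes: the Eph receptors, the ephrins, Slit1 to Slit3, Robo1 to Robo4, the netrins, the netrin-Gs, the Unc5 receptors, Dcc and Neo1. This gave 40 of the 24841 genes: 13 Eph receptors, 8 ephrins, 3 Slits, 4 Robo receptors, 6 netrin receptors, 4 netrins and 2 netrin-Gs. One Eph receptor was not analysed here. The rule for membership used only gene symbols, but it was chosen with earlier results of these data known.

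The data are single-nucleus RNA profiles of dissected, frozen mouse striatum. Striata labelled wild type gave 3 libraries and striata labelled Celsr3 heterozygous gave 3, each a biological replicate. Celsr3 encodes an atypical cadherin of the flamingo family, itself needed for the growth of forebrain axon tracts. The labels give no allele, strain, age, sex or treatment for either group, and they do not say whether a replicate is 1 animal or a pool, so the p-values below measure the spread between these libraries.

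Eph receptors are receptor tyrosine kinases that bind ephrins on neighbouring cells. The A-type ephrins are anchored to the membrane by lipid, the B-type ephrins span it, and both can signal back into the cell that carries them. Slits are secreted ligands of the Robo receptors and mostly repel axons. Netrins are secreted laminin-related cues that attract axons through Dcc and repel them through Unc5 receptors, and neogenin (Neo1) binds both netrins and repulsive guidance molecules. Netrin-Gs are relatives held at the membrane that bind synaptic adhesion proteins rather than Dcc. In the striatum, several of these families are known from the sorting of medium spiny neurons (MSN) and of the fibres that cross them. The D1 and D2 types of MSN, named for their dopamine receptors, give rise to the direct and indirect output pathways.

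The table held 48834 nuclei, of which 48065 were kept. Nuclei were clustered with the 40 genes left out of the genes used for clustering, and clusters were named X-like from lists of marker genes. Classes included 8498 D1 MSN-like, 7098 D2 MSN-like, 5496 oligodendrocyte-like, 5324 astrocyte-like and 4008 glutamatergic neuron-like nuclei, and 14 classes had enough nuclei in every library to be tested. Glutamatergic neuron-like nuclei came unevenly from the libraries, from 206 to 1540 each, as did 2298 nuclei of an unnamed cluster led by Sim1, from 72 to 968. Wild-type libraries had medians of 2434, 2909 and 2830 detected genes per nucleus, and heterozygous libraries 2882, 3003 and 2840. Of 48559 distinct barcodes, 274 occurred in more than one library. The deposited values are UMI values corrected for depth, so each level below is a mean corrected value per nucleus, its error is the SD over libraries, and the original depth is unknown.

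Celsr3 itself was lower in the heterozygous libraries in the populations most used below. In D1 MSN-like nuclei its level was 0.148, 0.169 and 0.177 in wild type and 0.0779, 0.101 and 0.0998 in heterozygotes, 56.4% of wild type. It stood at 62.1% of wild type in D2 MSN-like nuclei and at 69.2% in all nuclei, and the genotypes did not overlap in any of these populations. None of these differences passed the test across all genes (limma, adjusted p = 0.135, 0.294 and 0.457). Among other classes Celsr3 stood at 54.4% of wild type in glutamatergic neuron-like nuclei, without overlap. It stood at 91.3% in GABAergic interneuron-like and 80.0% in neuroblast-like nuclei, with overlap in both.

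The 40 genes were spread unevenly over the cell classes, and 12 of the 14 classes led at least 1 gene. Of the 40, 35 reached a mean of at least 0.05 per nucleus in some class. For 9 of these the leading class did not overlap with the second over the 6 libraries. The share of all genes with such a gap was not computed, so this count has no comparison. Of the 35, glutamatergic neuron-like nuclei were the leading class of 11 genes, cholinergic interneuron-like nuclei of 5 and D1 and D2 MSN-like nuclei of 1 each. These levels are a description with no test, since the classes were defined from the same nuclei. Efna2, Efna4, Epha1, Epha2 and Ntn5 stayed below 0.05 in every class.

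**Figure D1:**
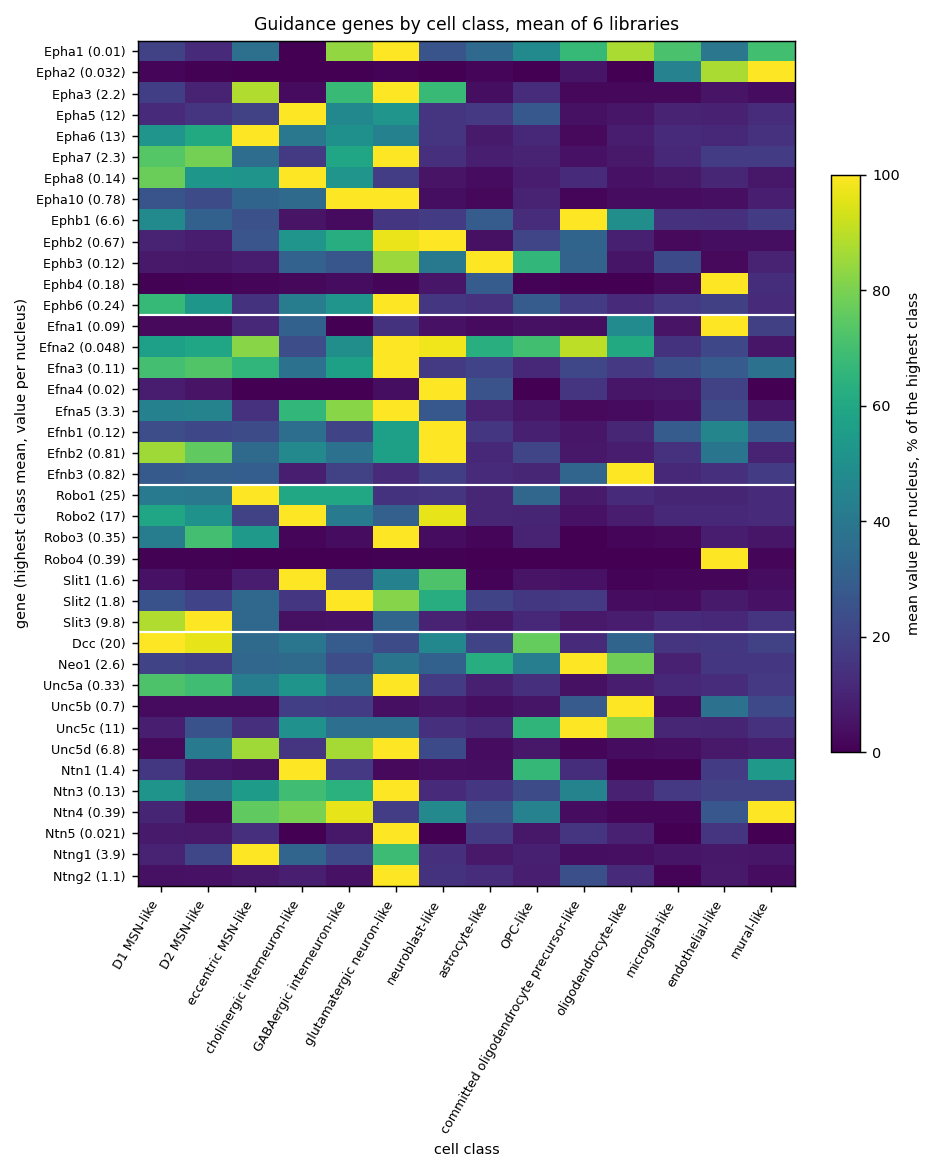
Mean value per nucleus of each guidance gene (rows) in 14 cell classes (columns), averaged over 6 libraries and drawn as a percentage of the gene's highest class, whose value stands in brackets. White lines separate Eph receptors, ephrins, the Slit/Robo family and the netrin family; Robo4 is bright in the endothelial-like column and near 0 elsewhere, while Dcc is brightest in both MSN columns.

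Long genes also gave a low value in classes of non-neural cells. Microglia-like nuclei, with a median of 1828 to 1968 genes per nucleus, held 3.10 ± 0.29 of Dcc, 2.52 ± 0.32 of Robo1 and 1.92 ± 0.21 of Robo2 (SD, n = 6). Endothelial-like nuclei held 3.24 of Dcc and mural-like nuclei 3.81, close to the microglia-like level. The microglia-like level is given below as a comparison for each gene. It is not a floor shared by all classes, since some lay under it, such as GABAergic interneuron-like nuclei with 0.201 of Ephb1 against 0.953. Levels of different genes also followed gene length: across the 40 genes, the mean over all nuclei and the genomic span, from 4.64 to 1097 kb, had a Spearman rho of 0.866, given as a description. Where genes are compared with each other, the level is divided by the span and given per 100 kb.

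Among the Eph receptors, the A-type genes that reached 0.05 in any class were all highest in a neuronal class. Epha5 was highest in cholinergic interneuron-like nuclei at 12.2 ± 2.6, ranging from 9.55 to 15.6, and did not overlap with the second class, glutamatergic neuron-like nuclei at 6.38 ± 1.5 (SD, n = 6 each). In D1 and D2 MSN-like nuclei Epha5 stood at 1.52 and 1.82, near its microglia-like level of 1.22. Epha6 was highest in eccentric MSN-like nuclei, a rarer MSN class marked by Otof and Casz1, at 13.1 ± 3.9, which overlapped with D2 MSN-like nuclei at 7.97 ± 0.72. Libraries of the eccentric class ranged from 7.77 to 17.3 for this gene. Epha3 led in glutamatergic neuron-like nuclei at 2.22 and eccentric MSN-like nuclei at 1.95, and Epha7 in glutamatergic neuron-like nuclei at 2.32 and D2 MSN-like nuclei at 1.83, both without a gap between the leading classes. Epha10, which encodes a receptor without kinase activity, had nearly the same level in glutamatergic neuron-like (0.782) and GABAergic interneuron-like nuclei (0.780). Epha8 was low throughout and highest in cholinergic interneuron-like nuclei at 0.138.

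The B-type receptors divided differently. Ephb1 was highest in committed oligodendrocyte precursor-like nuclei at 6.61 ± 1.4, above oligodendrocyte-like nuclei at 3.27 ± 0.17 with no overlap, while oligodendrocyte precursor (OPC)-like nuclei stood at 0.845, under the microglia-like level. D1 MSN-like nuclei followed at 3.13 ± 0.15. Ephb4, known for its part in arterial and venous identity, was highest in endothelial-like nuclei at 0.184 ± 0.039, with astrocyte-like nuclei next at 0.0535. Ephb3 was highest in astrocyte-like nuclei at 0.119, which overlapped with glutamatergic neuron-like nuclei at 0.101. Ephb2 was highest in neuroblast-like nuclei at 0.667 and glutamatergic neuron-like nuclei at 0.649. Ephb6, another receptor without kinase activity, led in glutamatergic neuron-like nuclei at 0.236.

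Of the ephrins, Efnb3 had the most marked glial level. It stood at 0.820 ± 0.060 in oligodendrocyte-like nuclei, at 0.267 in their committed precursors and between 0.0698 and 0.247 in the other classes; the leading class did not overlap with the second. An unnamed cluster of 2874 nuclei in which all oligodendrocyte markers were raised held 0.829. Per 100 kb of span, Efnb3 had the highest level of the 40 genes in both MSN classes, at 3.82 in D1 and 4.05 in D2 MSN-like nuclei, and reached 13.4 in oligodendrocyte-like nuclei. This rank was not particular to them. Efnb3, with a span of only 6.11 kb, was also first in astrocyte-like, microglia-like and mural-like nuclei, among others. Efna5, a broad ligand of A-type receptors, was highest in glutamatergic neuron-like nuclei at 3.27 ± 0.81, with GABAergic interneuron-like nuclei at 2.70 and both MSN classes near 1.45 (1.43 in D1 and 1.46 in D2). Efnb2 was highest in neuroblast-like nuclei at 0.814 and D1 MSN-like nuclei at 0.698, which overlapped. Efnb1 was highest in neuroblast-like nuclei at 0.115, Efna3 in glutamatergic neuron-like nuclei at 0.108 and Efna1 in endothelial-like nuclei at 0.0903.

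The Robo receptors each had a different leading class. Robo1 stood at 24.7 ± 1.0 in eccentric MSN-like nuclei, between 23.1 and 26.0 in every library, with no overlap with GABAergic interneuron-like nuclei at 14.8 ± 1.7. D1 and D2 MSN-like nuclei held 10.1 and 9.93. Robo2 was highest in cholinergic interneuron-like nuclei (16.7 ± 1.4) and neuroblast-like nuclei (16.1 ± 3.0), which did not differ beyond their spread. Eccentric MSN-like nuclei, the leading class of Robo1, held only 3.31 of Robo2, against 9.81 and 8.57 in D1 and D2 MSN-like nuclei. Robo3 was highest in glutamatergic neuron-like nuclei at 0.347 and D2 MSN-like nuclei at 0.243. Robo4, the endothelial member of the family, stood at 0.394 ± 0.055 in endothelial-like nuclei and at 0.00595 in mural-like nuclei, the second class. Robo3 (chr9:37415669-37433246, minus strand, GRCm38) and Robo4 (chr9:37401897-37415115, plus strand) are neighbours whose 3′ ends face each other.

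Their Slit ligands were also divided. Slit3 was highest in the MSN classes, against a microglia-like level of 1.19. D2 MSN-like nuclei held 9.84 ± 0.71 and D1 MSN-like nuclei 8.66 ± 0.71, followed by eccentric MSN-like nuclei at 3.33 and glutamatergic neuron-like nuclei at 3.21. Slit1 was highest in cholinergic interneuron-like nuclei at 1.59 ± 0.31 and neuroblast-like nuclei at 1.14 ± 0.11, and stood at 0.0750 and 0.0352 in D1 and D2 MSN-like nuclei. Slit2 led in GABAergic interneuron-like nuclei at 1.83, overlapping with glutamatergic neuron-like nuclei at 1.50. Choroid plexus-like nuclei, present in 3 libraries and not tested, held 5.01 ± 1.3 of Slit2 (SD, n = 3).

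Of the netrin receptors, Dcc led in the MSN classes, at 19.9 ± 0.78 in D1 and 19.2 ± 0.58 in D2 MSN-like nuclei, ranges that overlapped. OPC-like nuclei followed at 15.2 ± 1.1, and committed oligodendrocyte precursor-like nuclei were lowest at 2.37, under the microglia-like level. Unc5c had the reverse order along the oligodendrocyte classes, with 7.46 in OPC-like, 11.4 in committed precursor-like and 9.44 in oligodendrocyte-like nuclei, the latter pair overlapping. Neo1 was highest in the same late classes, at 2.63 ± 0.24 in committed precursor-like and 2.06 ± 0.21 in oligodendrocyte-like nuclei without overlap, and stood at 1.64 in astrocyte-like nuclei. Unc5b was highest in oligodendrocyte-like nuclei at 0.698 ± 0.10, above endothelial-like nuclei at 0.263 with no overlap. Unc5d was a neuronal gene, with 6.84 in glutamatergic neuron-like, 5.92 in GABAergic interneuron-like and 5.86 in eccentric MSN-like nuclei. Unc5a led in glutamatergic neuron-like nuclei at 0.325, followed by D1 and D2 MSN-like nuclei at 0.235 and 0.225.

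The netrins were low in most classes. Ntn1, the netrin bound by Dcc and Unc5 receptors, was highest in cholinergic interneuron-like nuclei at 1.44 ± 0.45, where single libraries ranged from 0.645 to 1.90, then in OPC-like nuclei at 0.960 and mural-like nuclei at 0.780. Oligodendrocyte-like nuclei were lowest, at 0.00795. Ntn4, a basement membrane netrin, was highest in mural-like (0.390) and GABAergic interneuron-like nuclei (0.375). Ntn3 led in glutamatergic neuron-like nuclei at 0.128. Ntng1 was highest among the named classes in eccentric MSN-like nuclei at 3.95 ± 0.54, overlapping with glutamatergic neuron-like nuclei at 2.71. An unnamed cluster of 696 nuclei, led by Trpm6, Lhx9, Lef1 and Ntng1 itself, held 34.2 ± 3.2 of Ntng1 (SD, n = 5); heterozygous replicate 1 gave it no nucleus. Ntng2 stood at 1.09 in glutamatergic neuron-like nuclei, with no overlap with the second class, and 1 glutamatergic cluster of this class, led by Nr4a2 and Smoc2, held 8.25 ± 1.2.

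Divided by gene span, the order of the genes within a class changed. In D1 MSN-like nuclei the highest levels per 100 kb after Efnb3 were those of Robo2 at 1.89 and Dcc at 1.81, and in D2 MSN-like nuclei those of Dcc at 1.75 and Slit3 at 1.68. Eccentric MSN-like nuclei had Efnb3 at 4.01 and Robo1 at 3.35 per 100 kb. In cholinergic interneuron-like nuclei Epha5 (3.36) and Robo2 (3.21) led, and in neuroblast-like nuclei Robo2 (3.09) and Efnb3 (2.51). GABAergic interneuron-like nuclei were led by Efnb3 at 2.63 and Epha10 at 2.11, and glutamatergic neuron-like nuclei by the short gene Ntn3 at 2.25 and Epha10 at 2.12. Ntn3 overlaps Tbc1d24 on the same strand, and its level was not separated from that gene. Along the oligodendrocyte classes Unc5c stood at 2.02, 3.09 and 2.55 per 100 kb in OPC-like, committed precursor-like and oligodendrocyte-like nuclei. In endothelial-like nuclei Robo4 led at 2.98. Efnb3 also led in microglia-like nuclei, at 1.54 per 100 kb.

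D1 and D2 MSN-like nuclei had similar levels of most guidance genes but differed in several. Among the 28 genes with a mean of at least 0.05 in either class, the levels of 7 (25.0%) did not overlap between the classes over the 6 libraries, against 6.47% of all 11348 genes compared in this way. The 4 higher in D1 MSN-like nuclei were Ntn1, Slit1, Epha3 and Ephb1 (background 4.39%), and the 3 higher in D2 MSN-like nuclei were Unc5d, Unc5c and Ntng1 (background 2.08%). Of the 28 genes, 4 both lacked overlap and differed by over 2-fold on the log2 (mean + 0.01) scale, against 1.63% of all genes. The median absolute log2 difference was 0.235 for the 28 genes and 0.0941 for all genes. Both classes come from the same libraries, and the values are a description with no test.

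The netrin receptors Unc5d and Unc5c gave the largest differences toward D2. Unc5d (chr8:28646717-29219636, minus strand, GRCm38) stood at 0.168 ± 0.063 in D1 and 2.84 ± 0.81 in D2 MSN-like nuclei, 16.9 times higher in D2 (log2 difference -4.04 ± 0.70, SD, n = 6 libraries). The highest D1 value was 0.227 and the lowest D2 value 1.85. The D1 level did not exceed the microglia-like level of 0.273. Unc5c (chr3:141465216-141834924, plus strand) stood at 0.963 ± 0.072 in D1 and 2.87 ± 0.28 in D2 MSN-like nuclei, and its D1 level was again below the microglia-like level of 1.21. Ntng1 stood at 0.389 ± 0.041 and 0.842 ± 0.13. Robo3 was higher in D2 in all 6 libraries, at 0.146 ± 0.053 against 0.243 ± 0.087, although the ranges of the classes overlapped. Dcc and Robo1, the genes of highest level in both classes before division by span, differed by 0.05 and 0.02 on the log2 scale.

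Toward D1, Ntn1 (chr11:68209364-68400823, minus strand) gave the largest difference, at 0.234 ± 0.072 against 0.0796 ± 0.020 (log2 difference 1.42 ± 0.38). Its level in D1 MSN-like nuclei varied from 0.137 to 0.322 between libraries, above the highest D2 value of 0.103. Slit1 followed with a log2 difference of 0.92 ± 0.34, from low levels in both classes. Epha3 stood at 0.414 ± 0.031 and 0.224 ± 0.033, and Ephb1 at 3.13 ± 0.15 and 2.06 ± 0.062.

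**Figure D2:**
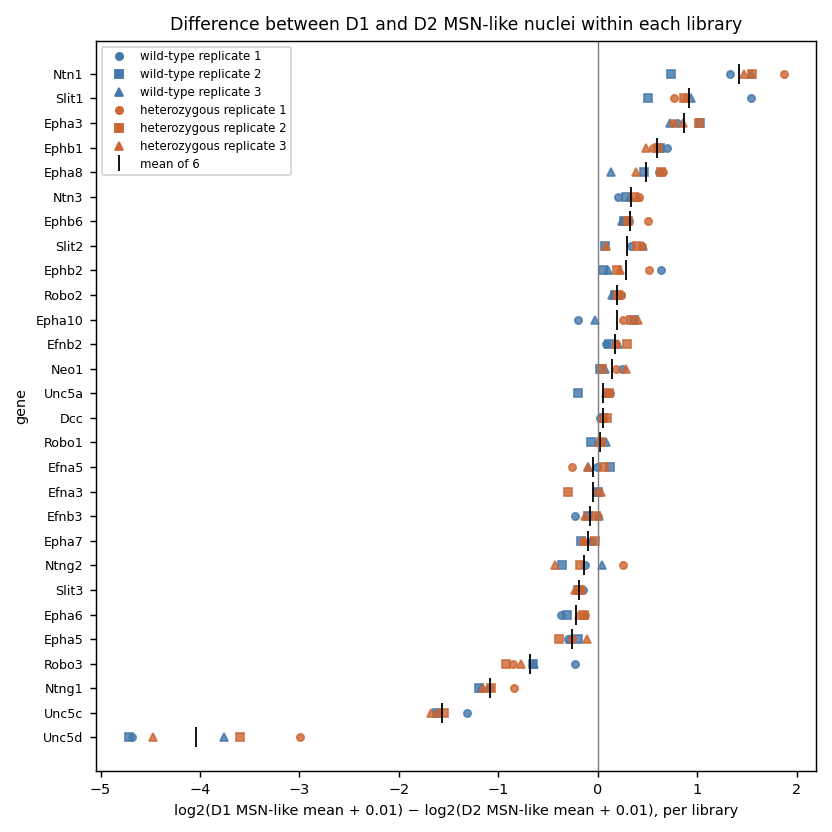
Difference in log2 (mean value per nucleus + 0.01) between D1 and D2 MSN-like nuclei of the same library (horizontal axis, positive where D1 is higher) for the 28 guidance genes with a mean of at least 0.05 in either class. Symbols are the 6 libraries and the black line is their mean; Unc5d has a mean of -4.04 and Ntn1 a mean of 1.42.

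Within the D1 and D2 classes, the same genes varied further between clusters. D1 MSN-like nuclei formed cluster 11 (led by Gpr139 and Dkk2), cluster 9 (led by Impg1, Zp3r and Myo3b) and cluster 8 (led by Tcfl5, Pdyn and Drd3). D2 MSN-like nuclei formed cluster 1 (led by Drd2, Oprd1 and Adora2a), cluster 2 (led by Zp3r, Tll1 and Myo3b) and cluster 10 (led by Calcr, P2ry1 and Pde1c). Clusters 8 and 10 both had Col6a1 among their leading genes, and clusters 9 and 2 shared Zp3r and Myo3b. The genes described next were chosen after their cluster values were seen.

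Robo3 was near 0 in clusters 8 and 10, at 0.0147 ± 0.0044 and 0.0104 ± 0.0063, and between 0.191 and 0.305 in the other clusters of both classes. Ntn1 had the opposite pattern, with 0.549 ± 0.16 in cluster 8 and 0.253 ± 0.028 in cluster 10 and at most 0.0650 in the other MSN clusters. Clusters 11, 9, 1 and 2 differed by little in Ntn1 (0.0650, 0.0513, 0.0606 and 0.0413). Cluster 8 made up 27.9% to 43.4% of D1 MSN-like nuclei, and cluster 10 made up 8.08% to 15.7% of D2 MSN-like nuclei. The excess of Ntn1 in D1 over D2 thus combines the levels of clusters 8 and 10 with these shares, which were not separated. Slit2 was also highest in clusters 8 and 10, at 0.946 ± 0.37 and 0.928 ± 0.64, where wild-type replicate 1 stood apart with 1.65 and 2.09.

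Efna5 was low in clusters 9 and 2, at 0.428 ± 0.067 and 0.377 ± 0.055, and between 1.57 and 2.28 in the rest. Its receptor gene Epha5 was lowest in the largest D1 cluster, cluster 11, at 0.649 ± 0.073 and highest in cluster 10 at 3.92 ± 0.71. Epha6 ranged from 4.46 in cluster 9 to 13.8 ± 0.64 in cluster 10, the latter similar to eccentric MSN-like nuclei. Unc5c was highest in cluster 2 at 6.18 ± 1.1, and Unc5d stood at 1.55 ± 0.25 in cluster 1, 4.05 ± 1.2 in cluster 2 and 8.52 ± 3.1 in cluster 10 (SD, n = 6 each). In the D1 clusters Unc5d stayed between 0.0713 and 0.334.

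**Figure D3:**
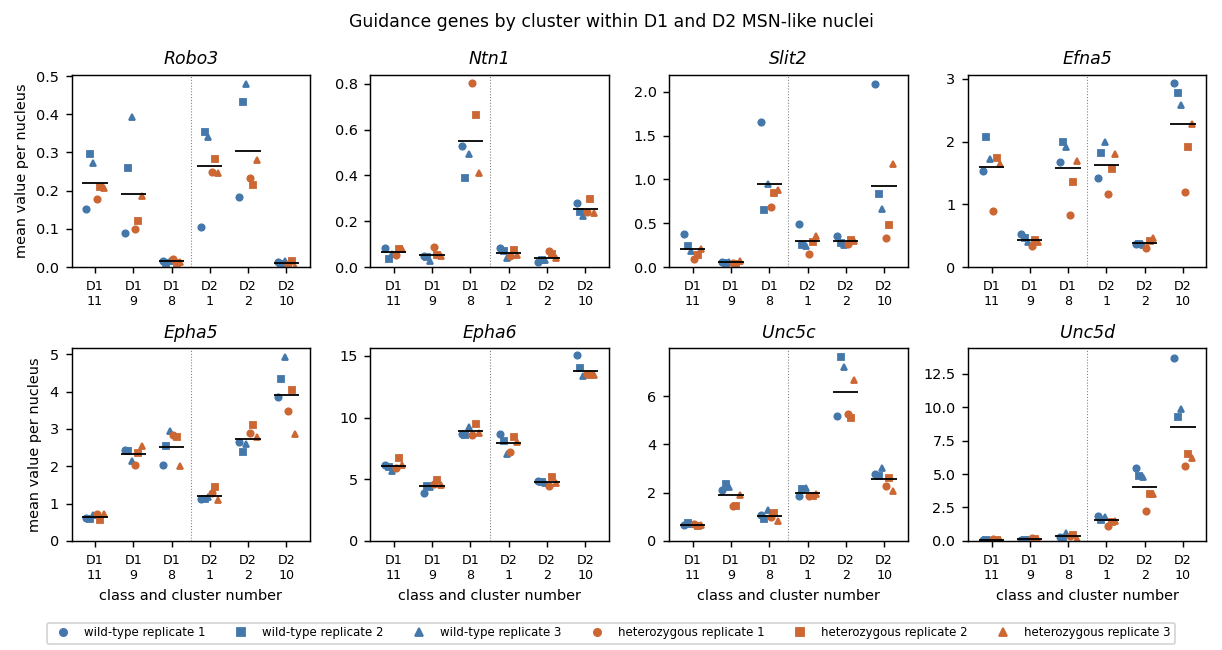
Mean value per nucleus (vertical axis) of 8 guidance genes in the 3 D1 and 3 D2 MSN-like clusters (horizontal axis), 1 symbol per library and a line at the mean of 6. Robo3 is near 0 in clusters 8 and 10, where Ntn1 and Slit2 are highest, and Unc5d is higher in wild-type than in heterozygous symbols in each D2 cluster.

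The comparison of genotypes asked whether guidance gene levels differed between libraries labelled Celsr3 heterozygous and wild type. No guidance gene passed an adjusted p of 0.05 in any of 15 populations (all nuclei and 14 classes; limma on log2 (mean + 0.01), Benjamini-Hochberg over all genes tested). The same test called 0% of all genes in all nuclei, 0.0223% in D1 MSN-like nuclei, 0.0157% in D2 MSN-like nuclei, 0.00796% in glutamatergic neuron-like nuclei and none in the other classes. Efna4, Epha1, Epha2 and Ntn5 were too low to be tested anywhere. At an unadjusted p under 0.05 there were 2 of 33 guidance genes in all nuclei, 3 of 31 in D1 and 4 of 29 in D2 MSN-like nuclei. The shares of all genes under that limit were 9.92%, 10.1% and 8.61%. In neuroblast-like nuclei 3 of 18 guidance genes, Epha6, Efna5 and Unc5c, had a p under 0.05, against 4.68% of all genes, and all were higher in heterozygotes. That class is named because its count was the largest outside D1 and D2. Microglia-like nuclei had 2 of 15, and GABAergic and cholinergic interneuron-like, OPC-like, astrocyte-like and eccentric MSN-like nuclei 1 each. The remaining classes had 0, such as 0 of 29 in glutamatergic neuron-like nuclei. Shares of all genes ran from 3.21% in endothelial-like to 6.52% in GABAergic interneuron-like nuclei.

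In all nuclei 27 of the 33 tested genes had a higher mean in heterozygotes, against 69.2% of all genes, and the median log2 difference was 0.15 for the guidance genes and 0.07 for all genes. Size-factor scaling, which shifts all genes of a library alike, gave 21 of 33 higher, with medians of 0.08 for the guidance genes and 0.01 for all genes. The medians were 0.08 and 0.05 in nuclei with at least 2000 genes, and 0.07 and 0.04 with a pseudocount of 0.1. Slit1 had the smallest p. Its level was 0.131, 0.0916 and 0.170 in the wild-type and 0.156, 0.224 and 0.254 in the heterozygous libraries. The genotypes overlapped, and the log2 difference was 0.66 ± 0.24 (SE; adjusted p = 0.475). Ntn1 differed by 0.26 ± 0.11 with overlap (adjusted p = 0.499) and Efna3, whose genotypes did not overlap, by 0.22 ± 0.095 (adjusted p = 0.502). Efna3 was the only one of the 33 without overlap, against 19.3% of all genes. With a pseudocount of 0.1 in place of 0.01 the differences were 0.43 for Slit1, 0.16 for Ntn1 and 0.09 for Efna3. A mean over all nuclei moves with the mix of classes as well as with levels within them. Within the 6 classes where Slit1 was tested its difference ran from -0.11 to 0.41, below that over all nuclei in each. For Efna3 it was 0.19 in D1, 0.28 in D2 MSN-like and -0.17 in glutamatergic neuron-like nuclei, and for Ntn1 it ran from -0.22 to 0.50 over 8 classes.

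In D1 MSN-like nuclei 22 of 31 guidance genes had a higher mean in heterozygotes, against 65.4% of all genes, and the median log2 difference was 0.11, against 0.06 for all genes. Without wild-type replicate 2 both medians were 0.06, and without heterozygous replicate 2 they were 0.07 and 0.04. With size-factor scaling 20 of 31 were higher, and the medians were 0.06 for the guidance genes and 0.01 for all genes. The genotypes did not overlap for 6 of the 31, against 16.7% of all genes. The 4 that lay higher in heterozygotes were Neo1, Unc5a, Dcc and Ephb6 (background 11.6%), and the 2 that lay lower were Unc5c and Ephb1 (background 5.04%). Neo1 (chr9:58874687-59036441, minus strand, GRCm38) stood at 0.534, 0.455 and 0.473 in wild type and 0.562, 0.593 and 0.611 in heterozygotes, a log2 difference of 0.27 ± 0.087 (SE; adjusted p = 0.374). The genotypes were separate, and the mean was higher in each of the 3 D1 clusters, though the libraries overlapped in cluster 9. Of the 14 alternatives run for Neo1, limma’s array weights, which called 473 genes in all, were the only one under which it passed (adjusted p = 0.0419). Unc5a stood at 0.214, 0.199 and 0.222 in wild type and 0.240, 0.267 and 0.269 in heterozygotes (log2 difference 0.28 ± 0.096, adjusted p = 0.395). The genotypes were separate in the whole class and within clusters 8, 9 and 11, which come from the same libraries. For this and the other cluster results, the share of all genes separate within a cluster is not given here. Unc5c stood at 1.00, 1.01 and 1.06 in wild type and 0.882, 0.938 and 0.886 in heterozygotes, a log2 difference of -0.18 ± 0.068 (adjusted p = 0.426) at a level under the microglia-like one. With equal cluster weights the difference was -0.32 (adjusted p = 0.211). Within cluster 9 the Unc5c mean was 2.24 ± 0.14 in wild type and 1.59 ± 0.27 in heterozygotes, without overlap (SD, n = 3 each). The genotypes overlapped in cluster 8, at 1.08 and 0.979, and in cluster 11, at 0.698 and 0.646. Neo1, Unc5a, Unc5c and Ephb1 each overlap an annotated gene on the opposite strand, and whether the counting used strand is not given in the sources used here.

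In D2 MSN-like nuclei 17 of 29 guidance genes had a higher mean in heterozygotes, against 60.1% of all genes, with a median log2 difference of 0.04, as for all genes. With size-factor scaling 15 of 29 were higher, and the medians of the guidance genes and of all genes were 0.0049 and 0.0043. Without heterozygous replicate 3 the median of the guidance genes was -0.01. The genotypes did not overlap for 2 of the 29, Unc5d and Neo1, against 14.5% of all genes. Unc5d stood at 4.19, 2.81 and 3.21 in the wild-type and 1.85, 2.71 and 2.26 in the heterozygous libraries. The lowest wild-type and the highest heterozygous library lay close together, and the heterozygous mean was 66.8% of wild type (log2 difference -0.58 ± 0.16, SE; adjusted p = 0.329; -0.36 with array weights). The mix of D2 clusters also varied between libraries: cluster 10 made up 8.08% to 15.7% of the class and cluster 2 15.2% to 24.0%. Within cluster 1 the Unc5d mean was 1.74 ± 0.14 in wild type and 1.36 ± 0.18 in heterozygotes. Within cluster 2 it was 5.03 ± 0.38 and 3.08 ± 0.75, and within cluster 10 10.9 ± 2.4 and 6.09 ± 0.43 (SD, n = 3 each), so that the genotypes were separate in each of the clusters. These clusters come from the same libraries and are not independent of each other. The share of all genes that were separate within a cluster is not given here. With the clusters weighted equally in every library, an alternative added after the data were seen, the log2 difference was -0.74 ± 0.12 and the adjusted p 0.120.

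Neo1 in D2 MSN-like nuclei stood at 0.451, 0.447 and 0.450 in wild type and 0.493, 0.576 and 0.499 in heterozygotes (log2 difference 0.21 ± 0.087, adjusted p = 0.554). Epha10 stood at 0.247, 0.161 and 0.208 and at 0.140, 0.151 and 0.170, with overlap and a log2 difference of -0.38 ± 0.16 (adjusted p = 0.554). With equal cluster weights the difference of Epha10 was -0.16, and without wild-type replicate 1 it was -0.24. Efna5 was lower in heterozygotes in both MSN classes on average, and heterozygous replicate 1 was the lowest library in both. Its D2 level was 1.49, 1.66 and 1.73 in wild type and 0.959, 1.35 and 1.58 in heterozygotes, and its D1 level in that replicate was 0.799 against 1.41 or more in every other library.

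**Figure D4:**
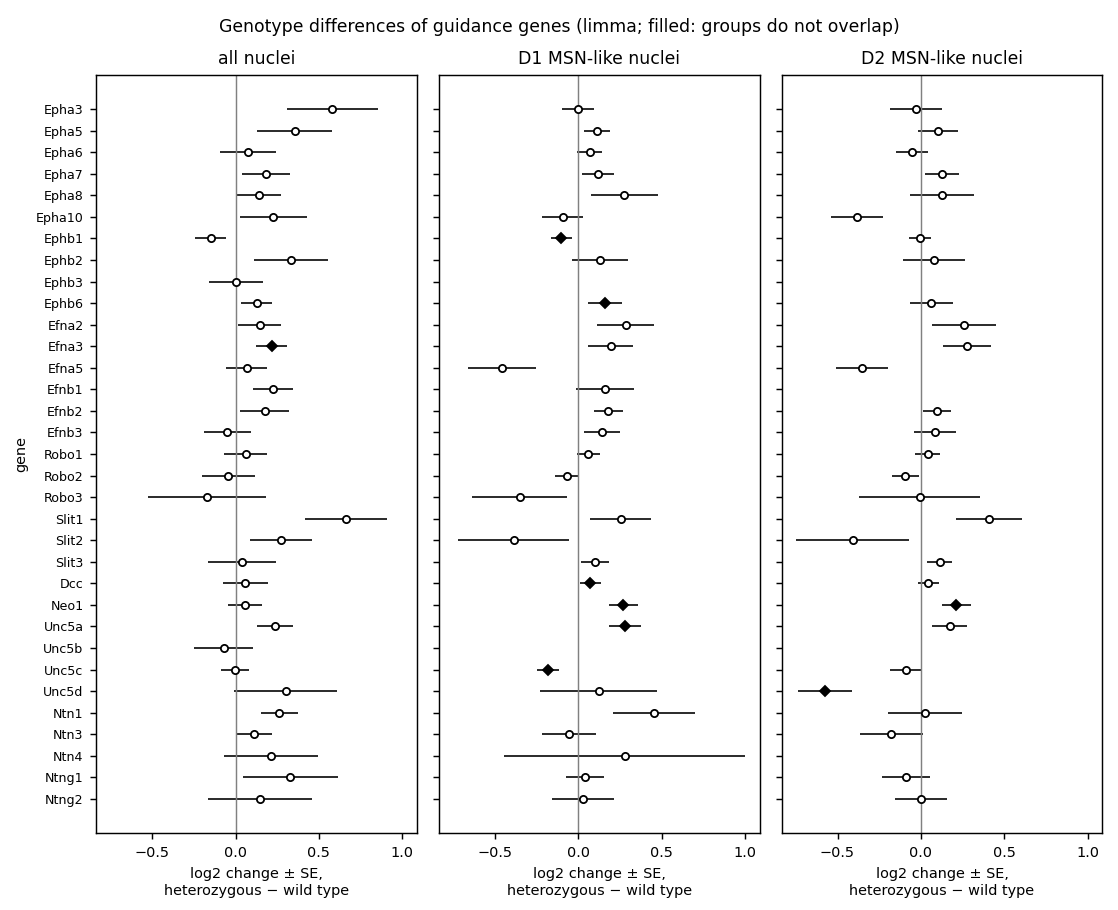
Log2 difference between heterozygous and wild-type libraries with its SE (horizontal axis) for each tested guidance gene (rows) in all nuclei, D1 and D2 MSN-like nuclei. Filled symbols mark genes whose genotypes did not overlap: 1 in all nuclei, 6 in D1 and 2 in D2 MSN-like nuclei; none passed the adjusted test.

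Whether the genotype difference itself differed between the MSN classes was tested with a genotype by class term and the library as a block. Of 29 guidance genes, 0 passed an adjusted p of 0.05 in this limma fit, against 0.0709% of 12692 genes, and 6 had an unadjusted p under 0.05, against 5.18% of all genes. Robo3 and Unc5d had the smallest p (adjusted p = 0.816 for both). For Unc5d the genotype difference was 0.70 ± 0.23 higher in D1 than in D2 on the log2 scale. Without heterozygous replicate 3 this difference was 1.09, with an adjusted p of 0.00821. The share of all genes that passed in that fit is not given here, so the call has no background. The D1 level of Unc5d also lay under the microglia-like level of 0.273, so the contrast sets D2 against a low value.

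Robo3 showed how far 1 library could move a genotype comparison, and is named for that after its values were seen. Its level in D1 MSN-like nuclei was 0.0862, 0.211 and 0.212 in wild type and 0.118, 0.115 and 0.132 in heterozygotes. In D2 MSN-like nuclei it was 0.103, 0.337 and 0.335 in wild type and 0.221, 0.225 and 0.234 in heterozygotes. Wild-type replicate 1 was the lowest library in both classes and the other wild-type libraries the highest. Over all libraries Robo3 did not differ in the test. Without wild-type replicate 1 its log2 difference was -0.75 in D1 (adjusted p = 0.0187) and -0.55 in D2 MSN-like nuclei (adjusted p = 0.0372), and the same fits called 232 and 121 genes. Wild-type replicate 1 also had the lowest median number of genes over all nuclei, 2434. It was not the lowest within D1 MSN-like nuclei, with 3396 against 3275 to 3498.5 in the other libraries. The shares of clusters 8 and 10, where Robo3 was near 0, also varied between wild-type libraries. Cluster 8 made up 27.9% to 43.4% of their D1 and cluster 10 8.83% to 14.99% of their D2 MSN-like nuclei. Whether this mix set the order of the libraries for Robo3 was not tested.

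**Figure D5:**
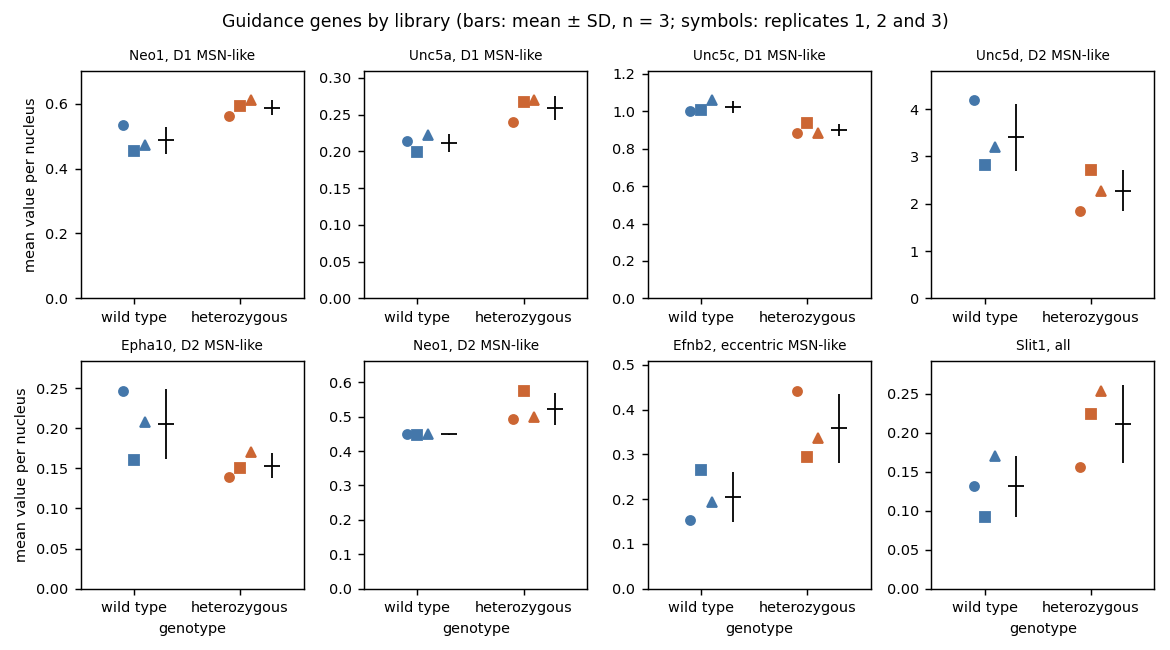
Mean value per nucleus (vertical axis, from 0) of the guidance genes with the smallest p, by genotype; circles, squares and triangles are replicates 1, 2 and 3, and bars are mean ± SD (n = 3). In D2 MSN-like nuclei Unc5d runs from 2.81 to 4.19 in wild type and from 1.85 to 2.71 in heterozygotes.

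Outside these MSN classes the gene of smallest p in each class also missed the threshold. In eccentric MSN-like nuclei it was Efnb2, at 0.154, 0.265 and 0.194 in wild type and 0.443, 0.295 and 0.337 in heterozygotes (log2 difference 0.79 ± 0.23, adjusted p = 0.787), with no overlap. In neuroblast-like nuclei Epha6 stood at 2.07, 1.37 and 1.02 and at 2.86, 3.09 and 1.81 (0.82 ± 0.23, adjusted p = 0.862), where the genotypes overlapped. In nuclei with at least 2000 genes this difference was 0.52. OPC-like nuclei had Unc5d at 0.135, 0.197 and 0.373 in wild type and 1.14, 0.386 and 0.391 in heterozygotes (1.33 ± 0.45, adjusted p = 0.899); the high library, heterozygous replicate 1, held only 29 OPC-like nuclei, and without it the difference was 0.82.

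The log2 difference was 0.51 for Ntng1 in GABAergic interneuron-like nuclei (adjusted p = 0.609) and 0.67 for Ntng1 in oligodendrocyte-like nuclei (adjusted p = 0.988), or 0.31 without wild-type replicate 2. For Efna5 it was 0.52 in astrocyte-like nuclei (adjusted p = 0.781), with heterozygous replicate 3 at 0.562 and the other libraries at 0.338 or less (0.22 without it), and -0.64 in cholinergic interneuron-like nuclei (adjusted p = 0.914). For Efnb2 in endothelial-like nuclei it was -0.64 (adjusted p = 0.971), but -0.26 without heterozygous replicate 2 and -1.03 without heterozygous replicate 1. For Ephb1 in committed oligodendrocyte precursor-like nuclei it was 0.37 (adjusted p = 0.849), or 0.18 without wild-type replicate 1. Epha7 in glutamatergic neuron-like nuclei differed by 0.21 (adjusted p = 0.932), Ntn1 in mural-like nuclei by 0.50 (adjusted p = 0.912) and Robo1 in microglia-like nuclei by 0.27 (adjusted p = 0.922). In this last class 14 of 15 tested guidance genes had a higher mean in heterozygotes, against 49.7% of all genes. The count was 10 of 15 when wild-type or heterozygous replicate 1 was left out. Most other classes, glial or not, leaned the same way, so this is not particular to microglia-like nuclei. Oligodendrocyte-like nuclei had 18 of 21 higher (55.8% of all genes), astrocyte-like 19 of 23 (56.4%) and OPC-like 13 of 15 (58%). Committed oligodendrocyte precursor-like nuclei had 6 of 8 (51.3%), mural-like 7 of 9 (56.8%) and endothelial-like 10 of 17 (49.2%). Among neuronal classes, GABAergic interneuron-like nuclei had 17 of 25 (55.8%), neuroblast-like 11 of 18 (48.5%) and eccentric MSN-like 13 of 21 (51.6%). Cholinergic interneuron-like nuclei went the other way, with 5 of 12 higher (54.4%). Whether free RNA differed between the genotypes was not tested. In glutamatergic neuron-like nuclei, which came unevenly from the libraries, 7 of 29 had a higher mean, against 56.6% of all genes, but 14 of 30 did when wild-type replicate 2 was left out, 11 of 29 when its replicate 3 was, and 12 of 29 when heterozygous replicate 1 or 3 was.

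The genes that act with these receptors were read from a list of 35 adaptors, exchange factors, coreceptors and further ligands, such as the Slit-Robo GTPase-activating protein gene Srgap1, the repulsive guidance molecule Rgmb and the sheddase Adam10. None of 34 tested in all nuclei and of 32 tested in each MSN class passed the adjusted test. At an unadjusted p under 0.05 there were 4 in all nuclei, of which Rgmb, Flrt2 and Evl were higher and Lrrc4 lower in heterozygotes. There were 0 of 32 in D1 MSN-like nuclei and 1 of 32, Lrrc4, in D2 MSN-like nuclei. The shares of all genes under that limit were again 9.92%, 10.1% and 8.61%, and 4 of 34 is close to the first. Lrrc4, which encodes a postsynaptic partner of netrin-G2, stood at 1.67, 1.30 and 1.32 in wild type and 1.27, 1.17 and 0.956 in heterozygotes in D2 MSN-like nuclei (log2 difference -0.33 ± 0.13, adjusted p = 0.506). In D1 MSN-like nuclei it differed by -0.30 with overlap (adjusted p = 0.505). The log2 difference of Lrrc4 was also negative in every other class tested, so it is not particular to D2 MSN-like nuclei. Its smallest p was in oligodendrocyte-like nuclei, without overlap (-0.38 ± 0.10, adjusted p = 0.598). Adam10, which cleaves ephrins and Eph receptors, stood at 0.447, 0.411 and 0.392 in wild type and 0.472, 0.484 and 0.463 in heterozygotes in D1 MSN-like nuclei (0.18 ± 0.082, adjusted p = 0.509). In D2 MSN-like nuclei it differed by 0.20 with overlap (adjusted p = 0.612).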

How the data were processed

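Single-nucleus RNA was measured in 6 libraries (10x Genomics 3′ v3.1, sequenced on 1 lane, per the labels' protocols). Cell Ranger, Seurat 4.1 and the builds mm10/GRCm38 are named in the submitters' processing notes. The authors deposited 1 table, whose unit is treated as a score, namely UMI values corrected for depth and rounded to whole numbers. This was read from the values: totals per nucleus varied by 10.7% (4523 to 10638), and in 10.0% of nuclei at least 10 of 13152 low genes stood at 2 or 3 and none at 1. The limma test planned for values other than raw counts was therefore used, and no counting error is given.

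Clusters came from 2000 variable genes (40 guidance genes and 1 Eph receptor left out), 30 principal components, 15 neighbours and Leiden resolution 1.0 (scanpy 1.11.5, igraph 0.11.9, Python 3.11.15), giving 41. A cluster was named from 135 marker entries, with at least 3 markers over 2-fold above other nuclei and, in addition, 1 in its top 10 genes or 70% of the list (50% for MSN classes). Clusters without this, or whose top genes held as many markers of another class, stayed unnamed, which left 7. Nuclei with a Scrublet score above 0.25 and clusters with over 40% of them were left out (769 nuclei), because the automatic threshold called under 0.5% in 2 of 6 libraries. These limits were set after clusters were seen.

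Means per nucleus, library and class were tested as log2(mean + 0.01), heterozygous against wild type, 3 libraries each, with limma 3.58.1 (trended, R 4.3.3). Such differences understate the change of low genes. Genes needed a mean of at least 0.02 and a summed value of 30 per library; a class needed 20 nuclei in every library. All adjusted p-values are Benjamini-Hochberg over all genes of a population. The fits were tested on simulated data. Spans and coordinates are from the GENCODE annotation of GRCm38, and 18 of the 40 genes overlap another gene there. For 4 of them, Ntn1, Ntn3, Ntng2 and Slit3, the other gene lies on the same strand.

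The genes named were those called, the 3 of smallest p in all, D1 and D2 MSN-like nuclei, the first in each other class, and the genes of highest level or largest D1 to D2 difference. Members, lists and rules were chosen with earlier results of these data known. Alternatives covered the pseudocount, filter, scaling, weights, replicate block, left-out libraries, depth, cluster mix and class calls.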

Additional observations from a re-analysis of the deposited data

How the results depend on the processing

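Across 276 alternative fits of the 21 named genotype differences, 0 changed direction and 1 passed the threshold: Neo1 in D1 MSN-like nuclei with array weights, at 0.32 (adjusted p = 0.0419, over a range of 0.0419 to 0.843 for all its alternatives). These differences were picked for their small p and the fits reuse the same libraries, so a steady direction was partly set by that choice. The share of all genes that changed direction is not given here. The count of guidance genes called rose from 0 to 1 in D1 MSN-like nuclei with array weights (Neo1) and ranged from 0 to 1 when single libraries were left out, with Robo3 called without wild-type replicate 1 in D1 and in D2 MSN-like nuclei. The genotype by class count ranged from 0 to 1 in the same way (Unc5d, without heterozygous replicate 3) and the partner count from 0 to 2 (Srgap1 at -0.37 and Flrt2 at 0.44 in D1 MSN-like nuclei, without wild-type replicate 1); the cause was not tested. Over all genes, calls in D1 MSN-like nuclei numbered 3, or 473 under array weights, and calls in D2 MSN-like nuclei 2, or 174, while leaving out wild-type replicate 1 raised them to 232 and 121. Genotypes share replicate numbers, but same-numbered libraries did not deviate together throughout (correlations of -0.04, 0.14 and -0.07 in all nuclei and of 0.27, 0.01 and 0.19 in D1 MSN-like nuclei). The fit with the replicate block called 0 guidance genes in every population, and its calls over all genes in D2 MSN-like nuclei were 17. Size-factor scaling called 0 guidance genes, and in D1 MSN-like nuclei 34.48% of the genes at p under 0.05 were then higher in heterozygotes, against 785 of 1355 without it. With D1 or D2 called per nucleus from markers, the count of guidance genes without overlap was 7, and the share over all genes was not computed. Markers gave 97.6% of these nuclei the same class, so the count had little room to move. The limit of 2000 genes per nucleus was not run for OPC-like and mural-like nuclei, which had too few nuclei. Depth before correction is unknown, so no limit for low genes can be given.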
